A study of Mus musculus with 12 samples.

Results

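The miR-1 and miR-133 miRNAs of striated muscle were followed in mouse hearts through 4 mature miRNAs: mmu-miR-1a-3p, mmu-miR-133a-3p, mmu-miR-133b-3p and mmu-miR-133a-5p, written below without the prefix for mouse where they recur. They were taken by name from a miRNA array that carries probes for 1881 mouse miRNAs. All 4 were detected on all 12 arrays, and so belonged to the 128 miRNAs that met this condition. Heart muscle came from male C57BL6/J mice aged 5 months, with 3 arrays in each of 4 groups. Control mice (C) received neither streptozotocin nor pargyline, while C+P mice were non-diabetic and received pargyline, an inhibitor of monoamine oxidase, at 50 mg/kg per day for 12 weeks. Diabetic mice (D) received streptozotocin, which destroys the insulin-producing cells of the pancreas, at 50 mg/kg per day for 5 days from 6 to 7 weeks of age and were counted as diabetic at a blood glucose of 17 mM or more. D+P mice received both agents. Each array held RNA from heart tissue, so that fewer muscle cells and less of a miRNA per cell cannot be told apart. An array is named here by its group and the number of its mouse, and a number shared by groups does not pair them.

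miR-1 and miR-133 are made together in heart and skeletal muscle from shared precursor transcripts, under the control of muscle transcription factors. miR-1 is known to promote muscle differentiation and to restrain growth factor signaling in cardiomyocytes, whereas miR-133 is known to restrain cardiac hypertrophy and smooth muscle genes in the heart. Each miRNA recognizes its target mRNAs mainly through its seed, bases 2 to 8 from the 5′ end. In the mouse RefSeq annotation (GRCm38.p6), Mir1a-1 and Mir133a-2 lie side by side on chromosome 2 inside 1 host gene, Mir1a-1hg, with 0 annotated genes between them. Mir206 and Mir133b are likewise neighbours on chromosome 1, and Mir1a-2 and Mir133a-1 form a further pair of neighbours.

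A RefSeq mature sequence was matched for 1 of the 4 miRNAs, miR-133b-3p. It is shown with miR-206-3p, the skeletal muscle relative of miR-1 from the same locus as miR-133b, because these sequences carry the seed of miR-133 and the seed that miR-1 and miR-206 share. Seeds are in capitals.
miR-133b-3p: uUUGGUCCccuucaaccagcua
miR-206-3p: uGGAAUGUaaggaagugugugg
The first lies at chr1:20682834-20682855 and the second at chr1:20679055-20679076, both on the plus strand of GRCm38.p6. The mature miR-133a-3p and miR-133b-3p are nearly identical in sequence, so a share of each one's signal may come from the other, and their values are uncertain to that extent.

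Probes of the array gave a scanner signal in arbitrary units, and the brightness of 1 miRNA cannot be read as its amount against another. The number of miRNAs detected on an array ranged from 144 to 163 in C and from 165 to 203 in D, and with pargyline from 214 to 253 (C+P) and from 187 to 218 (D+P). As a group the C arrays were dimmest. Their summed miRNA signal was 27107 to 35028, against 39661 to 89040 on the other arrays, and the mean log2 signal of 10 control features of the array design lay at 10.29 to 10.56 for C, 11.03 to 11.48 for C+P, 11.07 to 11.21 for D and 10.29 to 11.10 for D+P. Array D+P 1 stood apart from the other D+P arrays, with control features at 10.29 against 10.86 and 11.10. C and D were on 1 slide and C+P and D+P on another, so pargyline and slide cannot be told apart, and on both slides the non-diabetic mice filled the first row of arrays and the diabetic mice the second. Of the heart muscle markers, miR-208a-3p and miR-499-5p, which are encoded in myosin heavy chain genes, were detected on all 12 arrays. The markers of skeletal muscle (miR-206-3p), liver (miR-122-5p), neurons (miR-124-3p and miR-9-5p) and pancreatic islets (miR-375-3p) were detected on 0 of 12.

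mmu-miR-1a-3p had the widest range of the 4. Its signal was 873, 615 and 681 on the 3 C arrays, 3605, 4441 and 6912 in C+P, 4440, 3965 and 2373 in D, and 716, 1839 and 3460 in D+P. All C+P and all D arrays exceeded the 3 C arrays, while the D+P arrays spread from the level of C to that of D and stayed below all C+P arrays. The mean signal was 6.90 times that of C in C+P, 4.97 times in D and 2.77 times in D+P. miR-1a-3p was the 6th to 7th brightest of the 128 miRNAs in C, the third brightest on each C+P array and the third or 4th brightest in D.

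The 3p miRNAs of the miR-133 family moved less. The signal of mmu-miR-133a-3p was 1377, 1131 and 1406 in C, 2355, 2505 and 4236 in C+P, 2973, 2621 and 2137 in D, and 870, 2041 and 2585 in D+P. mmu-miR-133b-3p gave 2038, 1676 and 2044 in C, 3508, 3626 and 6040 in C+P, 4283, 3801 and 3092 in D, and 1450, 3045 and 3752 in D+P. For both, the C+P and the D arrays were all above the C arrays, and D+P 1 was below all of them. The mean signal of miR-133a-3p was 2.32 times that of C in C+P, 1.98 times in D and 1.40 times in D+P, and that of miR-133b-3p 2.29, 1.94 and 1.43 times. mmu-miR-133a-5p, from the opposite arm of the miR-133a hairpins, was far dimmer and ranked 34th to 45th. Its signal was 86.8, 81.0 and 91.1 in C, 135, 132 and 240 in C+P, 134, 134 and 121 in D, and 103, 146 and 153 in D+P, with all 9 treated or diabetic arrays above the 3 C arrays. The scanner's own error estimate was 7.33% to 8.66% of the signal for the 4 miRNAs. It covers the reading of an array and not the spread between mice.

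**Figure D1:**
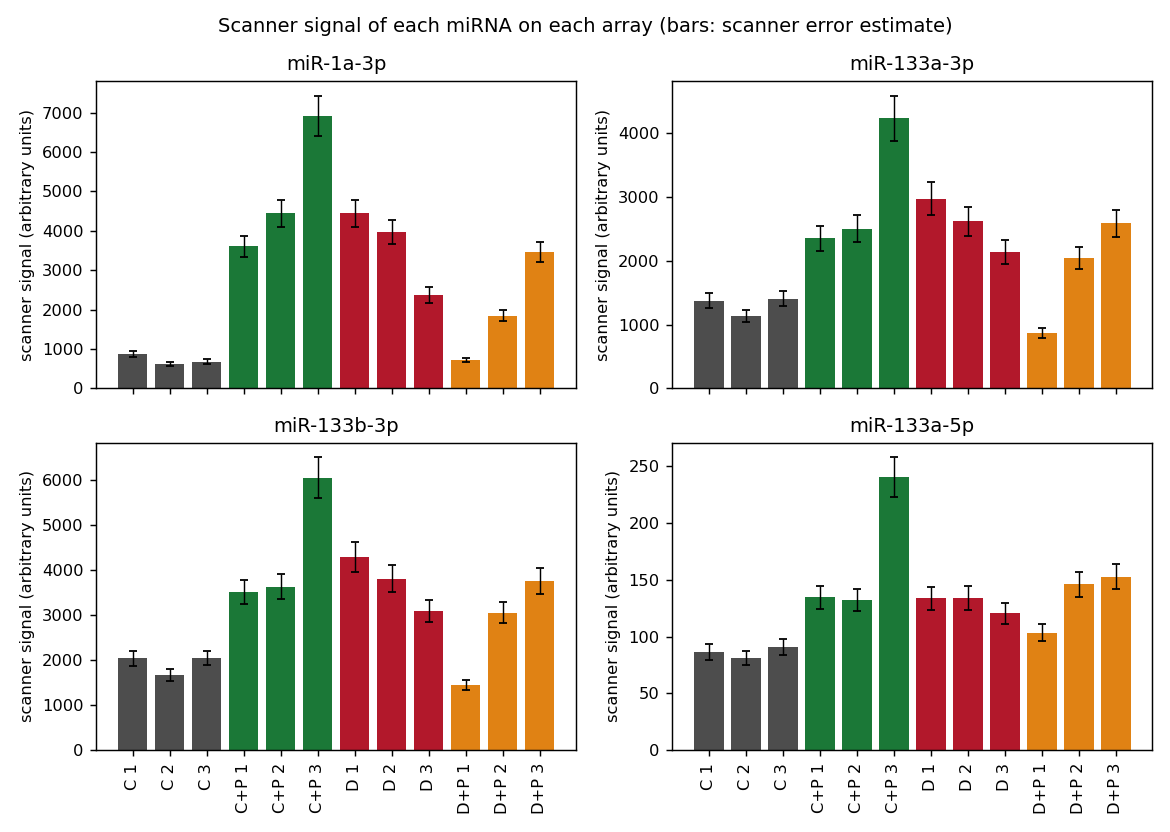
Scanner signal (arbitrary units, linear axis from 0) of each miRNA on the 12 arrays, with the scanner's error estimate as bars and groups in different colours. The C arrays are low for all 4 miRNAs, miR-1a-3p spans 615 to 6912, and array D+P 1 lies below the other D+P arrays.

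Because the C arrays were dim throughout, each miRNA was next set against the average of its own array, the mean log2 signal of the 124 other miRNAs detected on all 12 arrays. On this scale miR-1a-3p was 4.39, 4.16 and 4.07 above the average in C, 5.80, 5.93 and 5.92 in C+P, 5.97, 6.06 and 5.54 in D, and 4.02, 4.73 and 5.56 in D+P. The group means ± SD (n = 3) were 4.21 ± 0.16 in C, 4.77 ± 0.77 in D+P, 5.86 ± 0.28 in D and 5.88 ± 0.07 in C+P. D and C+P, which stand next to each other in this order, differed by far less than their spread, and D+P overlapped with both C and D. The D arrays and the C+P arrays did not overlap with C. In the D against C comparison 73.4% of the 128 miRNAs had groups that did not overlap on this scale, and in the C+P against C comparison 71.1%. The exact two-sided permutation test gave p = 0.1 for each, the smallest that 3 arrays against 3 allow, and p = 0.219 after Benjamini-Hochberg adjustment over the 35 tests of this kind.

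miR-133a-3p was 5.07 ± 0.04 above the array average in C, 5.17 ± 0.06 in C+P, 5.42 ± 0.04 in D and 4.77 ± 0.43 in D+P. miR-133b-3p gave 5.63 ± 0.03, 5.71 ± 0.06, 5.95 ± 0.04 and 5.39 ± 0.32 in the same order. For both, the lowest D array still exceeded the highest C array, and the groups differed by 0.34 on average for miR-133a-3p and 0.32 for miR-133b-3p (exact permutation p = 0.1, n = 3 against 3). The C and C+P arrays overlapped. miR-133a-5p stayed between 1.00 ± 0.12 in C+P and 1.16 ± 0.09 in C, and its groups overlapped in all 4 comparisons. For the 4 miRNAs, non-overlapping groups were found for 3 in D against C, for 1 in C+P against C, for 2 in D+P against D (56.2% of the 128) and for 1 in D+P against C+P (35.2%).

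**Figure D2:**
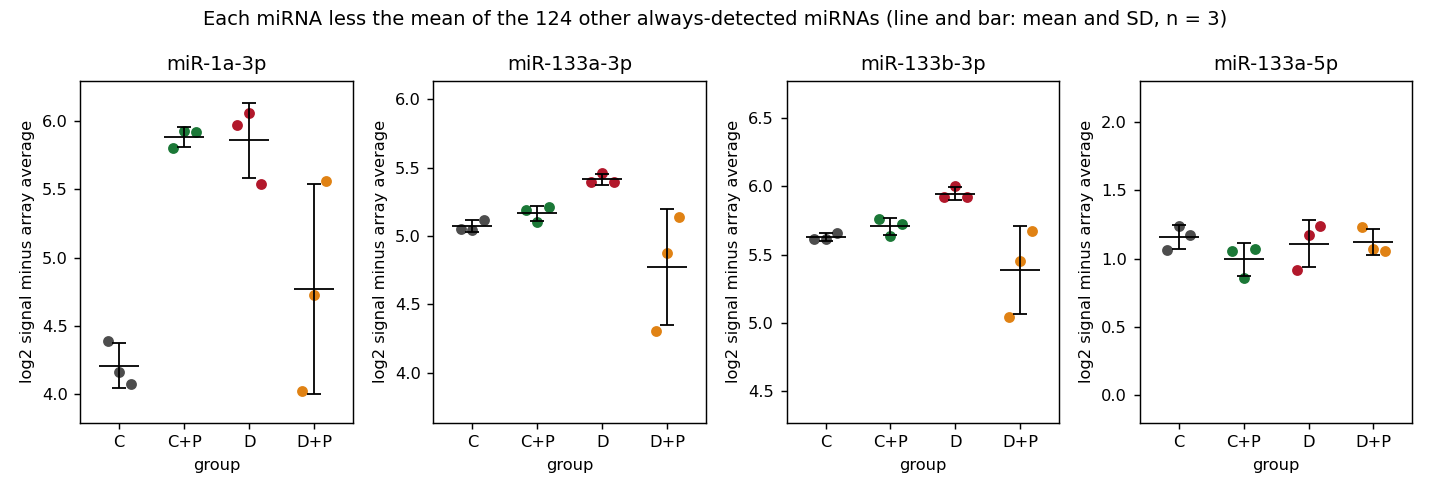
Log2 signal of each miRNA less the mean log2 signal of the 124 other always-detected miRNAs of the same array, by group, with every array as a point and the mean and SD as line and bar (all panels span the same number of log2 units). miR-1a-3p lies at 4.21 in C and near 5.9 in D and C+P, while miR-133a-5p stays near 1 in every group.

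The 4 miRNAs were then tested with limma on all 12 arrays after cyclic loess normalization, which fits a curve between arrays along the range of brightness, with Benjamini-Hochberg adjustment over the 128 miRNAs. This asked whether diabetes (D against C), pargyline in non-diabetic hearts (C+P against C), pargyline in diabetic hearts (D+P against D) or diabetes under pargyline (D+P against C+P) changed a miRNA, and whether the change with diabetes differed with pargyline (the interaction). Of the 4 miRNAs, 1 passed an adjusted p of 0.05 in each of the 5 comparisons, and it was miR-1a-3p each time. Among all 128 miRNAs, 50% passed in D against C, 36.7% in C+P against C, 53.9% in D+P against D, 13.3% in D+P against C+P and 70.3% in the interaction, so a call was common in most of these comparisons. The comparisons share arrays of C, C+P and D and are not independent of each other.

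miR-1a-3p rose in D against C by 1.32 on the log2 scale (SE 0.26, limma adjusted p = 0.0035), the 5th highest change of the 128. It rose in C+P against C by 1.48 (SE 0.26, adjusted p = 0.0055), the second highest. Between D and D+P it fell by 0.71 (SE 0.26, adjusted p = 0.042) and in D+P against C+P by 0.87 (SE 0.26, adjusted p = 0.045). Both of these calls were narrow. When 1 array at a time was left out, each was lost in 10 of 12 fits, holding only without D 3 or without D+P 3, and the differences ran from -1.02 to -0.38 and from -1.19 to -0.57. Both were smallest without the dim array D+P 1 (adjusted p = 0.147 and 0.094). With each slide normalized alone, mmu-miR-1a-3p differed between D and D+P by -0.28 (adjusted p = 0.386). Of the 4 miRNAs, the one called there was mmu-miR-133a-5p, at 0.63 (adjusted p = 0.0016), where 72 of the 128 miRNAs passed. That setting does not bring the 2 slides to a common level, and D and D+P were on different slides. miR-133a-3p and miR-133b-3p also lay higher there, at 0.17 and 0.23, against -0.26 and -0.21 with all arrays normalized together. The interaction was -2.19 (SE 0.37, adjusted p = 0.0026), which means that the change with diabetes was 2.19 lower in pargyline-treated than in untreated mice, and it was called in all 12 fits with 1 array left out, between -2.50 and -1.88. The calls in D against C and C+P against C also held in all 12. In a fit of all 1881 miRNAs without a filter on detection, the change in D against C was 1.29 (adjusted p = 0.15), that in C+P against C 1.44 (adjusted p = 0.185) and the interaction -2.15 (adjusted p = 0.096), none of them called. In that fit 5, 4 and 2 of the 1881 miRNAs passed in these 3 comparisons.

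The miR-133 miRNAs passed in none of the 5 comparisons with this normalization. miR-133a-3p differed by 0.01 (95% interval -0.32 to 0.33, limma adjusted p = 0.962) in D against C and by -0.10 (-0.43 to 0.23, adjusted p = 0.574) in C+P against C. Between D and D+P it differed by -0.26 (-0.59 to 0.07, adjusted p = 0.148). The values of miR-133b-3p were 0.02, -0.09 and -0.21 in these comparisons, with adjusted p from 0.197 to 0.914. miR-133a-5p gave -0.15, -0.16 and 0.15, with adjusted p from 0.326 to 0.351. The intervals of miR-133a-3p and miR-133b-3p leave room for changes of about 0.3 in either direction in D against C.

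The direction given to the miR-133 miRNAs depended on how the arrays were scaled. With each array scaled to the mean of its other miRNAs, miR-133a-3p differed by 0.34 in D against C (limma adjusted p = 0.115), and between D and D+P it fell by 0.64 (adjusted p = 0.014) and miR-133b-3p by 0.56 (adjusted p = 0.014). In that fit 55.5% of the 128 miRNAs passed in D against C, 36.7% in C+P against C, 51.6% in D+P against D, 19.5% in D+P against C+P and 73.4% in the interaction, and of the 4 miRNAs 1, 1, 3, 1 and 3 did. With quantile normalization miR-133a-3p instead fell by 0.44 in D against C (adjusted p = 0.034), and its difference in D+P against D was 0.05 (adjusted p = 0.747). Quantile normalization gives each miRNA the mean value of its rank on the array. miR-133a-3p ranked 4th on each C array and 5th on each D and C+P array. The fall of 0.44 is the step between these ranks and does not measure a change in its signal. miR-133a-3p and miR-133b-3p were among the 6 brightest miRNAs on every array. miR-1a-3p kept its sign under every scaling that was run. Its change in D against C ranged from 1.24 with quantile normalization to 1.65 with scaling to the mean, and without any normalization it was 2.28.

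**Figure D3:**
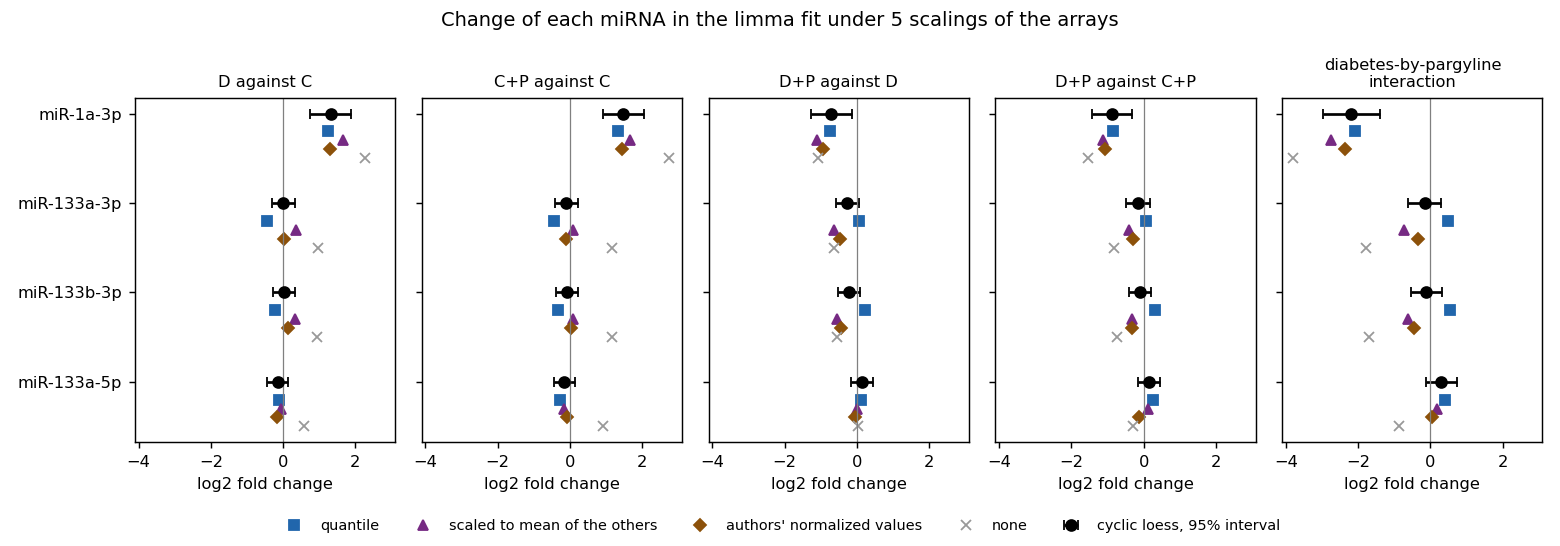
Log2 fold change of each miRNA in the limma fits, 1 panel per comparison, after cyclic loess (black, with its 95% interval) and under 4 other scalings of the arrays. miR-1a-3p lies on the same side of 0 under all 5 scalings in every panel, while miR-133a-3p and miR-133b-3p lie on either side of it in D+P against D.

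The miR-1 and miR-133 families were set against each other within each array, where a factor that multiplies all signals of an array alike cancels. miR-1a-3p less miR-133a-3p was -0.66, -0.88 and -1.05 on the log2 scale in C, 0.61, 0.83 and 0.71 in C+P, 0.58, 0.60 and 0.15 in D, and -0.28, -0.15 and 0.42 in D+P. miR-1a-3p was thus dimmer than miR-133a-3p on every C array and brighter on every C+P and D array. The difference rose by 1.30 from C to D and by 1.58 from C to C+P, or 2.47 and 2.98 times on the linear scale. Neither comparison overlapped, as for 70.1% and 68.5% of the other 127 miRNAs set against miR-133a-3p, and the exact permutation p was 0.1 for each with 3 arrays against 3. D+P did not overlap with C+P, as for 39.4% of the 127, and overlapped with D, from which 55.1% of the 127 were set apart.

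A limma fit with each array scaled to miR-133a-3p, chosen after the data had been seen, tested this unequal change over all arrays. miR-1a-3p rose relative to miR-133a-3p by 1.30 in D against C (SE 0.20, adjusted p = 0.0036, where 35.4% of the 127 miRNAs passed) and by 1.58 in C+P against C (SE 0.20, adjusted p = 0.0014, where 10.2% passed). In D+P against C+P it fell by 0.72 (adjusted p = 0.043, 18.1% passed), a call lost in 10 of 12 fits with 1 array left out, among them those without C+P 3, where the difference was -0.72 (adjusted p = 0.134), and without D+P 1, where it was -0.58 (adjusted p = 0.076). In D+P against D the difference was -0.45 (adjusted p = 0.076, 52.8% passed). The interaction was -2.02 (SE 0.28, adjusted p = 0.0032, 61.4% passed), and it ranged from -2.23 to -1.88 and was called in all 12 fits with 1 array left out, as were the first 2 comparisons.

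Within the miR-133 family, miR-133b-3p and miR-133a-3p kept nearly the same distance on all arrays but D+P 1. miR-133b-3p was brighter by 0.56 ± 0.02 (SD, n = 3) in C, 0.54 ± 0.03 in C+P, 0.53 ± 0.005 in D and 0.62 ± 0.11 in D+P, where D+P 1 gave 0.74. The groups did not overlap in D against C or in D+P against D (exact permutation p = 0.1 for each). Of the 127 miRNAs set against miR-133a-3p, 70.1% and 55.1% did not overlap in these comparisons. In limma relative to miR-133a-3p it differed by -0.03 in D against C (95% interval -0.23 to 0.18, adjusted p = 0.832), and it passed in none of the 5 comparisons. The 2 arms of miR-133a kept their distance less well. miR-133a-5p less miR-133a-3p was -3.99, -3.80 and -3.95 in C, -4.13, -4.25 and -4.14 in C+P, -4.48, -4.29 and -4.15 in D, and -3.07, -3.80 and -4.08 in D+P.

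On every D and every C+P array the 5p arm was lower against the 3p arm than on any C array, and groups that did not overlap were found for 70.1% and 68.5% of the 127 miRNAs in these comparisons. Relative to miR-133a-3p, miR-133a-5p differed by -0.39 in D against C (SE 0.22, limma adjusted p = 0.163) and by -0.26 in C+P against C (adjusted p = 0.353). From D to D+P it rose by 0.65 (adjusted p = 0.030) and in the interaction the value was 0.91 (SE 0.31, adjusted p = 0.027). In that fit 52.8% of the 127 miRNAs passed between D and D+P, 65 of them higher and 2 lower, and 61.4% passed in the interaction, 60 with a positive and 18 with a negative value. The first of these calls was lost without D 1 (0.57, adjusted p = 0.097) or D 2 (0.66, adjusted p = 0.077), and without D+P 1 it was 0.36 (adjusted p = 0.041). The interaction was lost in 4 of 12 fits, those without C 2, C+P 2, D 1 or D 2, and was 0.62 (adjusted p = 0.0094) without D+P 1. After cyclic loess the difference between the arms moved by -0.16 in D against C, and after quantile normalization by 0.31, in the opposite direction. The quantile value takes in the fall of 0.44 in miR-133a-3p, which reflects its rank on the arrays alone.

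**Figure D4:**
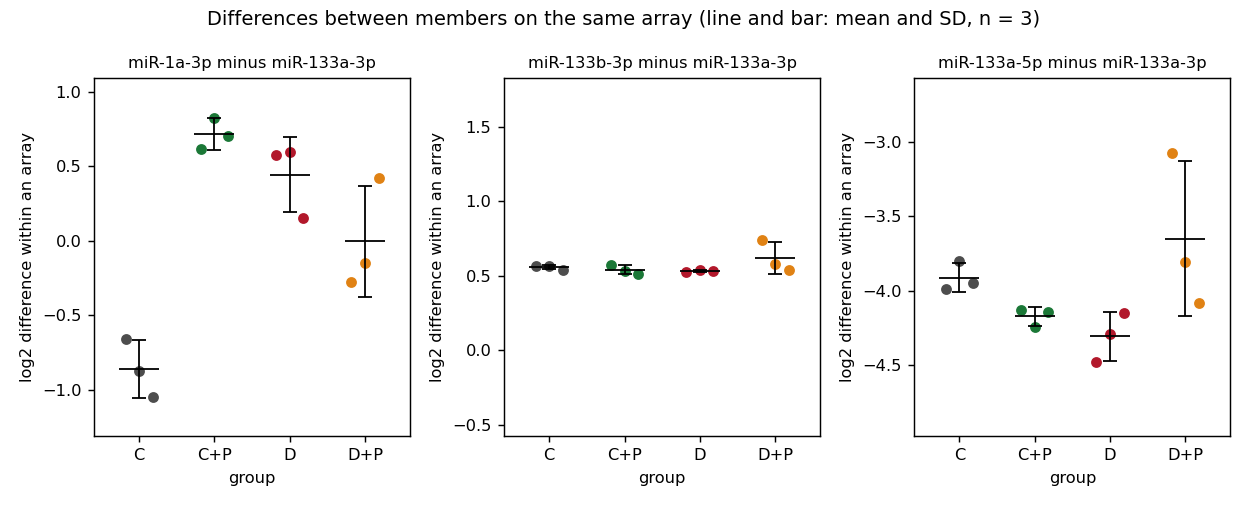
Log2 differences between the miRNAs on the same array, by group, with every array as a point and the mean and SD as line and bar (the panels span the same number of log2 units). miR-1a-3p less miR-133a-3p goes from -0.86 in C to 0.72 in C+P and 0.44 in D, while miR-133b-3p less miR-133a-3p stays between 0.51 and 0.74.

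The brightness of the control features moved with miR-1a-3p. The 4 arrays with the dimmest control features, at most 10.56, were the 3 C arrays and D+P 1, and these were also the 4 arrays with the lowest miR-1a-3p relative to miR-133a-3p and to the array average. The 3 D+P arrays stood in the same order on both measures. For miR-133a-5p less miR-133a-3p, 3 of these 4 arrays were among the 4 with the highest values. With the mean control signal of each array as a covariate in the limma fit, the change of miR-1a-3p was 0.58 in D against C (adjusted p = 0.373), 0.66 in C+P against C (adjusted p = 0.339) and -0.96 in the interaction (adjusted p = 0.515), with the same signs and no call. Of all 128 miRNAs, 1, 2 and 0 passed in these comparisons with the covariate. The control signals of the C arrays did not overlap with those of the C+P or D arrays, so that brightness and these groups cannot be told apart.

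**Figure D5:**
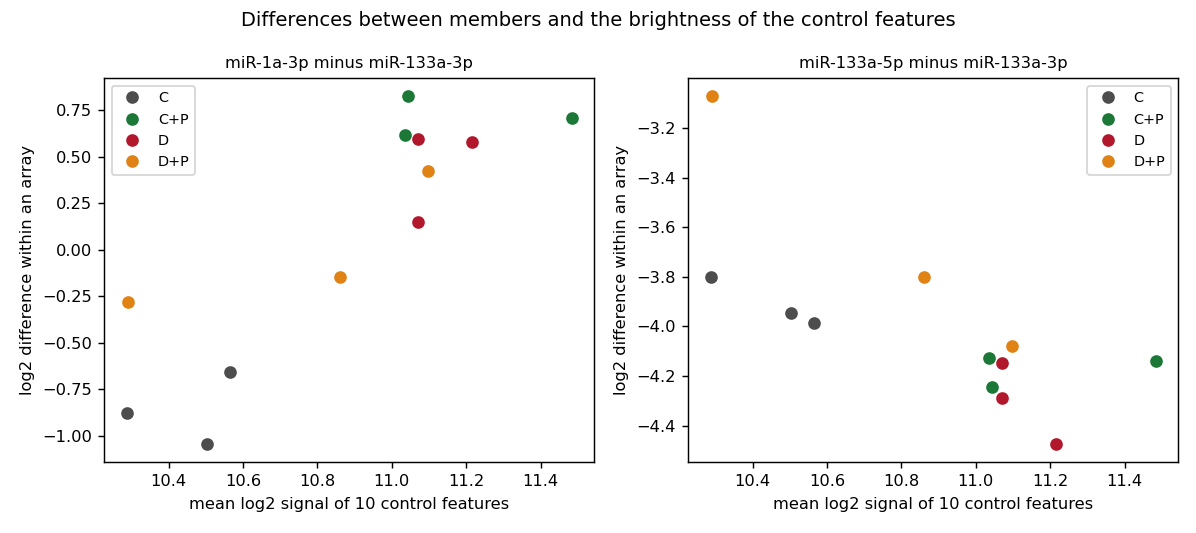
Log2 difference of miR-1a-3p (left) and of miR-133a-5p (right) from miR-133a-3p on each array, against the mean log2 signal of 10 control features of the same array. The 3 C arrays and D+P 1 have control features at 10.56 or below, and hold the 4 lowest values on the left and 3 of the 4 highest on the right.

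Base composition also moved with the changes. For the 108 of 128 miRNAs with a RefSeq sequence, the share of G and C correlated with the log2 change across miRNAs, which share the same arrays and are not independent, with r = -0.48 in D against C and 0.52 in the interaction. The 41 miRNAs of lowest GC, at most 45.5%, had a median change of 0.32 in D against C, and the 36 of highest GC, at least 56.1%, one of -0.53. Its part in the values of the miR-1 and miR-133 miRNAs was not tested.

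miR-1a-3p was not among the miRNAs most like miR-133a-3p over the arrays. By Pearson correlation of normalized log2 signal over the 12 arrays, which share brightness and slide, the 5 miRNAs most like miR-1a-3p were miR-23a-3p (r = 0.97), miR-26b-5p (0.96), miR-23b-3p (0.96), miR-30e-3p (0.95) and miR-199a-3p (0.95). Its correlation with miR-133a-3p was 0.27, the 56th highest of 127, and with miR-133a-5p -0.76. With arrays scaled to the mean of the other miRNAs, that with miR-133a-3p was 0.69. The miRNAs most like miR-133a-3p were miR-133b-3p (0.99), miR-25-3p (0.86), let-7c-5p (0.84), miR-30a-3p (0.83) and miR-152-3p (0.83). Those with a RefSeq sequence are shown to compare their seeds with the miR-206 and miR-133 seeds above.
miR-23a-3p: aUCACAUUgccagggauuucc
miR-26b-5p: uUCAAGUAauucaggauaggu
miR-30e-3p: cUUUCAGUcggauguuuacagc
miR-199a-3p: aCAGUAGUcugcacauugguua
miR-25-3p: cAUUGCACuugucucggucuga
let-7c-5p: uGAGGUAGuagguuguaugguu
miR-30a-3p: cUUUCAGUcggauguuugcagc
miR-152-3p: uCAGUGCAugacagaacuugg
None of these 8 carries the seed of miR-206-3p or miR-133b-3p. miR-30e-3p, from the miR-1a-3p group, and miR-30a-3p, from the miR-133a-3p group, share a seed. On GRCm38.p6, miR-23a-3p lies at chr8:84208563-84208583 and miR-26b-5p at chr1:74394324-74394344, both on the plus strand, miR-30e-3p at chr4:120772618-120772639 on the minus strand, and miR-199a-3p is encoded both at chr1:162217883-162217904 (plus) and at chr9:21496498-21496519 (minus). miR-25-3p lies at chr5:138165332-138165353 on the minus strand and miR-30a-3p at chr1:23272315-23272336, miR-152-3p at chr11:96850439-96850459 and let-7c-5p at chr15:85706616-85706637 and chr16:77599672-77599693 on the plus strand.

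Of the 8 other miRNAs of the miR-1, miR-206 and miR-133 families on the array, 0 were detected on any array, among them both arms of miR-206, the 5p arms of miR-1a and miR-1b, miR-1b-3p, miR-133b-5p and miR-133c. Of 9 other muscle miRNAs on the array, 3 were detected on all 12 arrays, and in D against C, where 50% of the 128 miRNAs passed, 1 of these fell and 0 rose. miR-208a-3p had signals of 42.9 to 46.0 in C and 40.2 to 41.6 in D and fell by 0.78 (limma adjusted p = 0.0073). miR-499-5p had signals of 72.7 to 102 in C and 128 to 181 in D, with a normalized difference of 0.09 (adjusted p = 0.654), and miR-486a-5p, which is abundant in muscle and in red cells, differed by -0.21 (adjusted p = 0.383). In C+P against C 1 of the 3 passed (36.7% of the 128), miR-486a-5p, which fell by 0.85 (adjusted p = 0.017). miR-499-5p fell by 0.48 in D+P against D (adjusted p = 0.042), where 53.9% of the 128 passed, and by 0.79 in D+P against C+P (adjusted p = 0.018), where miR-486a-5p rose by 0.76 (adjusted p = 0.032) and 13.3% of the 128 passed. In the interaction, where 70.3% of the 128 passed, all 3 did, miR-208a-3p with 0.89, miR-486a-5p with 0.97 and miR-499-5p with -0.88 (adjusted p from 0.0091 to 0.0098), so that miR-499-5p had the sign of miR-1a-3p and the others the opposite one.

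Markers of other cell types were present and brightened with the arrays. In the order C, C+P, D and D+P, the summed signal of the endothelial markers (1 of 2 detected on all arrays) ranged over 344 to 459, 995 to 1958, 809 to 1200 and 327 to 1035. That of the fibroblast markers (2 of 3) was 28.8 to 31.1, 73.9 to 164, 65.2 to 97.9 and 29.5 to 87.4, that of the red cell markers (2 of 2) 416 to 431, 686 to 1415, 640 to 846 and 269 to 781, that of the white blood cell markers (2 of 5) 12.2 to 25.8, 78.4 to 147, 38.4 to 60.2 and 10.4 to 60.8, and that of the smooth muscle markers (2 of 3) 36.8 to 51.1, 109 to 192, 82.0 to 105 and 62.1 to 130. After normalization, of the 9 markers of these cells that were tested, 4 rose and 1 fell in D against C, 4 rose and 0 fell in C+P against C, 1 rose and 3 fell in D+P against D, 0 rose and 3 fell in D+P against C+P, and 1 had a positive and 6 a negative interaction. Of the 128 miRNAs, 50%, 36.7%, 53.9%, 13.3% and 70.3% passed in these comparisons. Both fibroblast markers tested rose in D against C and in C+P against C and had a negative interaction. miR-199a-3p, among the miRNAs most like miR-1a-3p, is one of them, with changes of 0.91 (limma adjusted p = 0.0081), 0.86 (adjusted p = 0.026) and -1.66 (adjusted p = 0.0028). The part of these cells in the values of miR-1a-3p was not tested.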

How the data were processed

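The authors labelled total RNA from each heart with a single dye, hybridized it to Agilent mouse miRNA arrays and extracted the features with Agilent's Feature Extraction software. The deposited scanner files give per miRNA an intensity (the total gene signal, the sum over its probes after background subtraction), its error and a detection flag, with 0.1 for an undetected miRNA. The authors' normalized table of intensities (209 miRNAs) was deposited too, and was log2-transformed and used as an alternative only. Signals were log2-transformed, kept for the 128 miRNAs detected on all 12 arrays, normalized by cyclic loess (span 0.7, 3 iterations) and fitted with limma 3.58.1 in R 4.3.3 over 4 group means, with Benjamini-Hochberg adjustment over all miRNAs at 0.05. Within-array differences used the signals before normalization and exact two-sided permutation tests. The fit was tested on simulated data. Precision is limited by the number of arrays, of which no pair held identical signals. The deviations of same-numbered arrays from their group means had correlations of -0.37 to 0.49 over 18 pairs of arrays, which were not compared with those of other pairs. The 4 miRNAs, the marker and muscle lists, the 5 most alike miRNAs per target and the tests were chosen with earlier results of these data known. Alternatives covered the normalization, detection filter, variance model, covariates, test, adjustment and each array left out. The scaling to miR-133a-3p was added after seeing the data.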

Additional observations from a re-analysis of the deposited data

Results flagged for a closer look

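The change with diabetes differed between pargyline-treated and untreated mice for miR-1a-3p. The difference was -2.19 on the log2 scale after cyclic loess (limma adjusted p = 0.0026). With the control features as a covariate it was -0.96 (adjusted p = 0.515) and without a filter on detection -2.15 (adjusted p = 0.096), neither of them called. Relative to miR-133a-3p it was -2.02 (adjusted p = 0.0032). Relative to miR-133a-3p, the change of miR-133a-5p with diabetes also differed between treated and untreated mice, by 0.91 (adjusted p = 0.027). This call was lost in 4 of 12 fits with 1 array left out. The difference was -0.10 with quantile normalization, which uses only the ranks within an array. An interaction was called for 70.3% of all miRNAs after cyclic loess and for 61.4% relative to miR-133a-3p.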

How the results depend on the processing

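Each of the 5 comparisons called 1 of the 4 miRNAs in the fit as reported. Taking D against C first, then pargyline in non-diabetic mice, pargyline in diabetic mice, diabetes under pargyline and the interaction, quantile normalization called 2, 2, 0, 0 and 3, no normalization 3, 4, 0, 0 and 3, and both the fit without a detection filter and that with the control features as a covariate 0 in all 5. Scaling to the mean called 3 in D+P against D and in the interaction, where 66 and 94 of the 128 miRNAs passed. Over all 128 miRNAs, quantile normalization called 57, 32, 34, 7 and 90, no normalization 60, 96, 8, 2 and 70, and the covariate 1, 2, 0, 1 and 0. The fit without a filter called 5, 4, 0, 0 and 2 of 1881. Normalizing each slide alone called 2 in C+P against C, where 78 of the 128 miRNAs passed. It does not bring the slides to a common level, and this comparison and the next set 1 slide against the other. In D+P against D, where 72 of the 128 passed, the 1 of the 4 it called was mmu-miR-133a-5p (0.63, limma adjusted p = 0.0016), and mmu-miR-1a-3p was at -0.28 (adjusted p = 0.386). In D+P against D and D+P against C+P, 0 were called with the authors' normalized values, Holm adjustment, only the groups compared, the methods' t-test under Holm, the same t-test under Benjamini-Hochberg and the replicate block (miR-1a-3p adjusted p = 0.053 and 0.058). In the order of these settings, 3, 5, 0, 0, 0 and 58 of the 128 miRNAs passed in D+P against D. In D+P against C+P, 1, 2, 1, 0, 0 and 8 did. D+P against C+P also gave 0 with the 75th percentile, near-zero weight for the 4 miRNAs, a span of 0.4 and the filter on 1 group. There 3, 13 and 10 of the 128 miRNAs passed, and 12 of 209 with that filter. D against C gave 0 with the methods' t-test and its Holm adjustment, where 3 of the 128 passed. With 1 array left out, the 2 comparisons of D+P called 0 to 1 of the 4. Of the 128 miRNAs, 13 to 89 then passed in D+P against D and 1 to 73 in D+P against C+P.

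miR-1a-3p kept its sign in every setting. miR-133a-3p turned to -0.44 in D against C and miR-133b-3p to 0.54 in the interaction with quantile normalization. Both values reflect ranks within an array alone. miR-133a-3p ranked 4th on each C array and 5th on each D array. miR-133b-3p ranked 3rd on each C and D+P array, 4th on each C+P array and 3rd or 4th in D. In C+P against C, miR-133a-3p, miR-133b-3p and miR-133a-5p turned to 1.17, 1.15 and 0.91 without normalization. In the same comparison miR-133b-3p turned to 0.34 with each slide alone, which does not bring the slides to a common level.

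miR-1a-3p less miR-133a-3p moved with quantile normalization to 1.68 (D less C), 1.78 (C+P less C), -0.81 (D+P less D) and -2.59 (interaction). All quantile values given here rest on the ranks of the miRNAs within an array alone. miR-133b-3p less miR-133a-3p became 0.011 in D against C, 0.0081 in C+P against C and 0.044 in the interaction after cyclic loess. It became 0.22, 0.12 and 0.042 in these and 0.27 in D+P against C+P with quantile normalization, and 0.10, 0.13 and -0.13 in these, 0.0059 in D+P against D and -0.032 in D+P against C+P with the authors' values. miR-133a-5p less miR-133a-3p became -0.16, -0.055 and 0.46 in D against C, C+P against C and the interaction after cyclic loess. It became 0.31, 0.16 and -0.10 in these and 0.065 in D+P against D with quantile normalization, and -0.20, 0.033 and 0.38 with the authors' values. With 16 added before log2 its C+P against C value was -0.36. With 1 array left out, the interaction ran from 0.043 to 0.14 for miR-133b-3p and from 0.62 to 1.13 for miR-133a-5p, both lowest without D+P 1. With the median as array average, miR-133b-3p differed by 0.28 in D against C. The cause of these changes was not tested.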
